A study of Homo sapiens with 6 samples.

Results

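The elastic fibre and microfibril genes described here are 10 genes chosen by their symbol in the gene count table (ELN, FBN1, FBN2, FBLN5, EFEMP1, EFEMP2, MFAP2, MFAP4, MFAP5 and EMILIN1), out of 58735 genes listed. All 10 were found, and all 10 passed the filter on low counts, which kept 15341 genes. Their RNA was compared between 3 libraries of control UE7T-9 cells (genotype WT) and 3 libraries of the UE7T-9 SRRM4 KO line. UE7T-9 is a human mesenchymal stem cell line from bone marrow, and both groups were grown in DMEM. The SRRM4 KO line was made with a lenti-CRISPR v2 vector under puromycin selection and is 1 clone from limiting dilution, so features of the clone and of the knockout cannot be told apart. The study describes the loss of the SRRM4 protein as incomplete. SRRM4 had 0 counts in all 6 libraries, so the counts do not check the knockout. The labels do not say whether the libraries of a group came from separate cultures, and p-values measure the spread between these libraries, which may be technical.

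Elastic fibres give tissues their recoil. Fibrillins assemble outside the cell into microfibrils, small glycoproteins bind to the fibrillin rods, and tropoelastin is deposited on this scaffold with the help of fibulins and cross-linked by lysyl oxidases. Microfibrils also hold latent TGF-beta and BMP growth factors in the matrix. Mesenchymal stromal cells and fibroblasts make fibrillin-rich microfibrils in culture, and smooth muscle cells and fibroblasts are the main producers of elastin in tissues.

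Of the 10 genes, 6 were called lower in SRRM4 KO cells, 1 was called higher and 3 were not called. Calls required an adjusted p below 0.05 together with a change of more than 1 on the log2 scale (quasi-likelihood test of edgeR, Benjamini-Hochberg adjusted over 15341 genes). By the same rule 12.6% of all tested genes were called, 7.14% as lower and 5.45% as higher. The genes called lower were ELN, MFAP5, MFAP4, EFEMP1, EFEMP2 and FBLN5, and MFAP2 was called higher. The median log2 fold change of the 10 genes was -1.16, and that of all tested genes was -0.01. With the adjusted p alone, which 41.6% of tested genes passed, the fibrillin genes FBN1 and FBN2 were also lower, and EMILIN1 was the remaining member, which passed it only without control replicate 1. Control and SRRM4 KO libraries were fully separate in 9 of the 10 genes, and 51.8% of all tested genes had groups that did not overlap.

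The libraries held 21496117 to 23868323 counts each, and the 10 genes took 0.375% to 0.434% of them in control and 0.255% to 0.278% in SRRM4 KO libraries. A count of 0 allows up to 3 counts in a library, or 0.123 to 0.139 CPM (counts per 1000000 counts, with TMM scaling of library size), which covers counting error only. Control replicate 1 was the least like its fellow libraries, with a chi-square per degree of freedom of 20.9 and 21.4 against them, where replicates 2 and 3 gave 5.44. All 6 stromal markers were detected, of which THY1 (log2 fold change -2.43), PDGFRB (-2.14) and COL1A1 (-1.23) were called lower, and NT5E (0.52), VIM (0.36) and ENG (-0.34) passed the adjusted p alone. PTPRC, PECAM1, CDH5, EPCAM and KRT5 had at most 3 counts in any library. CD14 had 324 to 392 counts, CD34 66 to 93, the endothelial marker KDR 62 to 226 and CDH1 9 to 39. The summed CPM of 5 smooth muscle markers (ACTA2, MYH11, CNN1, TAGLN, DES) was 1533 to 1904 in control and 488 to 505 in SRRM4 KO libraries, with 2 of the 4 tested markers called lower. The summed CPM of 6 stromal markers, mostly COL1A1, was 28276 to 31646 and 12930 to 14564, with 3 of 6 called lower. That of 4 endothelial markers was 9.78 to 11.6 and 3.82 to 4.82, with KDR called lower of the 2 tested. Sums of 4 haematopoietic (20.1 to 21.5 and 17.9 to 21.0) and 4 epithelial markers (0.646 to 1.93 and 0.404 to 0.575) held 2 and 1 tested genes, of which 0 were called by edgeR or DESeq2 and 0 had an unadjusted p under 0.05. The part of these markers in the results was not tested. In these bulk samples, fewer cells of a type and less RNA per cell cannot be told apart.

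Promoter windows from RefSeq (GRCh38.p14) were found for 5 of the 10 genes (MFAP2, FBN1, FBN2, EFEMP2 and FBLN5). Of these, 3 windows that lie outside exons are shown, since they belong to the gene that rose and to the fibrillin genes, which fell least among the members that passed the adjusted p. Each is the 250 bases before a start site on the gene's own strand, 5′ to 3′. Capitals mark matches on either strand to the GC box GGGCGG, the AP-1 site TGANTCA, the TEAD core GGAATG, the ZEB and SNAI E-box CACCTG or the TATA box TATAAA.
MFAP2, chr1:16981584-16981833, minus strand: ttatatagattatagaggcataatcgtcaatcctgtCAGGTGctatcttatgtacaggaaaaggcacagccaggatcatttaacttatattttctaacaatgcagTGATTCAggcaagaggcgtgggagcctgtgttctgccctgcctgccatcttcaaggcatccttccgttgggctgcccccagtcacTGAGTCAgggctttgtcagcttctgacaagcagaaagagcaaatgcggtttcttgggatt
FBN1, chr15:48644971-48645220, minus strand: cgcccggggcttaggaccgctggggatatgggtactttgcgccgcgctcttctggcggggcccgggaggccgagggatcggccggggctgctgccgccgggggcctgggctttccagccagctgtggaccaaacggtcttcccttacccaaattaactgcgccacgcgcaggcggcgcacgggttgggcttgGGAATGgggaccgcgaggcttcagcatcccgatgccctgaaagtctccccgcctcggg
FBN2, chr5:128538246-128538495, minus strand: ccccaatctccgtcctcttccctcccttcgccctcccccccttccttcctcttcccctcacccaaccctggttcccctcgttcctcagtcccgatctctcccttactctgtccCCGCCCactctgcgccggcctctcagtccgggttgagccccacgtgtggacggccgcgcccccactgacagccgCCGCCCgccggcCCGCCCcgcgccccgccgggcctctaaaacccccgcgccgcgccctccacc
The MFAP2 window held 2 AP-1 matches and 1 E-box match, the FBN1 window held 1 TEAD match, and the FBN2 window held 3 GC box matches. Among 35116 RefSeq promoter windows of the same length, 6.57% held an AP-1 match, 17.5% the E-box, 11.9% the TEAD core, 42.6% the GC box and 10.7% the TATA box. The G and C content was 46.8% for MFAP2, 69.6% for FBN1 and 72.8% for FBN2, against a median of 58.0% over all windows. The start site behind the MFAP2 window is at 16981583, outside the gene's span in the count table. Those behind the FBN1 and FBN2 windows, at 48644970 and 128538245, lie inside the spans of these minus-strand genes, which begin at 48645849 and 128659185. MFAP2 has another RefSeq start site at 16980620, whose window held 2 GC box matches and no AP-1 match. Counts per gene do not show which start was used. These matches describe letters only.

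ELN (ENSG00000049540) encodes tropoelastin, the soluble precursor of elastin. The gene spans 74027789 to 74069907 of chromosome 7, plus strand (GRCh38, as all gene positions here), and its longest coding transcript in GENCODE release 29 has 34 exons. ELN had 412, 488 and 468 counts in control replicates 1 to 3 and 0, 0 and 0 in the SRRM4 KO libraries. Every control library was well above the detection limit, and every SRRM4 KO library was below it. The control level was 20.9 ± 1.82 CPM (SD, n = 3), and the fall is at least 159-fold against 3 counts per library (adjusted p = 1.89e-10).

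Only 2 of the 15341 tested genes had a lower fitted log2 fold change than ELN, and such fitted values depend on the prior count. Among 4426 tested genes whose mean control CPM was within 2-fold of that of ELN, GYG2 (glycogenin 2), RNF212 and MID2 had the profile most like it over the 6 libraries, with Pearson's r on log2(CPM + 0.5) of 0.999 for each. All 3 also had 0 counts in every SRRM4 KO library, and their falls were at least 161-fold, 91.1-fold and 86.7-fold. These r values span 6 libraries in 2 groups and are given as a description. The 3 genes were picked by r with ELN, so their low SRRM4 KO counts and large falls follow from the choice.

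Of the 16 tested genes within 500 kb of ELN, 0 were called lower and 2 higher, by edgeR and by DESeq2. By the adjusted p alone 3 of them were lower and 3 higher, and at an unadjusted p under 0.05, 4 were lower and 5 higher. Of all tested genes 12.6% were called, 41.6% passed the adjusted p alone and 49.1% had an unadjusted p under 0.05. The lowest log2 fold change was -0.70 (DNAJC30, adjusted p = 0.00135). LIMK1, a kinase gene 13026 bases away, had 42.4 ± 4.51 CPM in control and 44.1 ± 2.49 CPM in SRRM4 KO cells (SD, n = 3), which gave a log2 fold change of 0.06 ± 0.11 (SE). The median log2 fold change of the 16 genes was 0.01, and that of the 767 tested genes of chromosome 7 was -0.25. ELN shares 165 of its 6542 exonic bases with ELN-AS1 on the opposite strand, which reached at most 0.269 CPM.

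**Figure D1:**
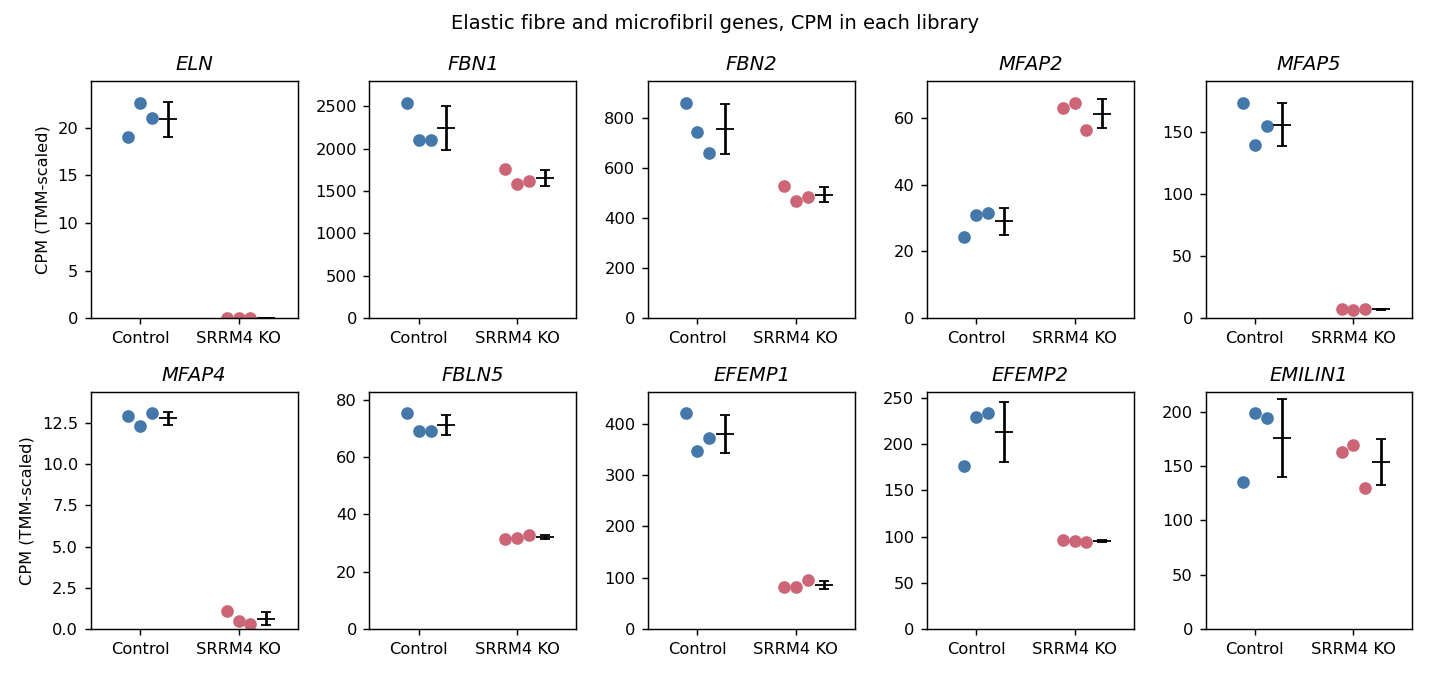
CPM (TMM-scaled) of each of the 10 genes in each library, on linear axes that start at 0 and differ between genes; points are libraries, and the black mark and bar give the group mean and SD (n = 3). Groups are separate in every panel but EMILIN1, ELN is at 0 in all 3 SRRM4 KO libraries, and MFAP2 is the panel in which SRRM4 KO is higher.

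The fibrillins, which form the backbone of microfibrils, fell modestly, and FBN1 stayed the most abundant of the 10 genes per base of length. FBN1 (ENSG00000166147, chromosome 15, 48408306 to 48645849) encodes fibrillin 1 and is the gene mutated in Marfan syndrome. It had 2545, 2099 and 2100 CPM in control and 1759, 1581 and 1620 CPM in SRRM4 KO libraries. All SRRM4 KO libraries were below all control libraries, and control replicate 1 was the highest. The log2 fold change was -0.44 ± 0.078 (SE from the edgeR fit, as for all genes, adjusted p = 0.000327), under the fold change threshold. FBN2 (ENSG00000138829, chromosome 5, 128257909 to 128659185) encodes fibrillin 2, the fibrillin known mainly from development. Its CPM were 864, 745 and 663 in control and 528, 471 and 484 in SRRM4 KO libraries. The groups again did not overlap, and the log2 fold change was -0.62 ± 0.091 (SE, adjusted p = 6.14e-05). Within a library the per-length ratio of FBN2 to FBN1 was 0.409 in control and 0.364 in SRRM4 KO cells (geometric means), a difference of -0.17 on the log2 scale. The exact two-sided permutation test gave p = 0.10 (0.15 after Benjamini-Hochberg adjustment over 6 ratios), and 0.10 is the smallest p that 3 libraries against 3 allow.

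The microfibril-associated glycoproteins moved in opposite directions. MFAP5 (ENSG00000197614, chromosome 12, 8637346 to 8662888) encodes MAGP-2, a small glycoprotein that binds fibrillins. It had 174, 140 and 155 CPM in control and 7.27, 6.53 and 7.36 CPM in SRRM4 KO libraries. The lowest control library was far above the highest SRRM4 KO library, and the SRRM4 KO libraries lay close together. The log2 fold change was -4.47 ± 0.12 (SE, adjusted p = 8.58e-13), a 22.2-fold fall, and 107 of the 15341 tested genes had a lower one.

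MFAP2 (ENSG00000117122, chromosome 1, 16974502 to 16980835) encodes MAGP-1, the relative of MAGP-2 that binds fibrillin and tropoelastin. It rose from 24.4, 31.1 and 31.6 CPM in control to 62.9, 64.6 and 56.4 CPM in SRRM4 KO libraries. Each SRRM4 KO library was above each control library, with control replicate 1 the lowest. The log2 fold change was 1.08 ± 0.11 (SE, adjusted p = 2.34e-06), close to the threshold of 1. Without control replicate 1 it was 0.97 with an adjusted p of 1.42e-08, so that 0 members were then called higher by edgeR. ATP13A2, a lysosomal transporter gene 5123 bases from MFAP2, also rose, from 89.1 ± 8.21 to 189 ± 3.66 CPM (SD, n = 3, log2 fold change 1.09, adjusted p = 1.26e-07). The 15 tested genes within 500 kb of MFAP2 had 0.01 as their median log2 fold change, and 3 were called higher and 1 lower. Of all tested genes 12.6% were called, 5.45% as higher and 7.14% as lower. Apart from ATP13A2, these called neighbours had a mean of at most 2.06 CPM in either group.

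Per base of gene length, MFAP5 was 4.05 times as abundant as MFAP2 in control libraries, and MFAP2 was 11.5 times as abundant as MFAP5 in SRRM4 KO libraries (geometric means). The log2 ratio of MFAP2 to MFAP5 was -2.42, -1.76 and -1.88 in control and 3.52, 3.71 and 3.35 in SRRM4 KO libraries, a difference of 5.55 (exact permutation p = 0.10, adjusted 0.15). The sign of the ratio was the same in every library of a group. Measured against FBN1, MFAP2 went from a log2 ratio of -3.82 ± 0.37 to -2.29 ± 0.12 (SD, n = 3), again without overlap (exact permutation p = 0.10, adjusted 0.15).

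MFAP4 (ENSG00000166482, chromosome 17, 19383442 to 19387240) encodes a protein with a fibrinogen-like domain that binds tropoelastin and fibrillin. Despite the shared symbol it is not a relative of MFAP2 and MFAP5 by sequence family. It had 280, 266 and 292 counts in control and 24, 11 and 7 in SRRM4 KO libraries. In control the libraries were tightly grouped, and in SRRM4 KO replicate 1 held most of the remaining counts. The level fell from 12.8 ± 0.390 to 0.616 ± 0.405 CPM (SD, n = 3), which is a log2 fold change of -4.37 ± 0.29 (SE, adjusted p = 1.88e-08). Without SRRM4 KO replicate 1 the log2 fold change was -5.03. MFAP4 shares 103 of its 2152 exonic bases with MAPK7 on the opposite strand, which had a log2 fold change of 0.09 and up to 34.5 CPM. The libraries are non-stranded, and where in the gene the remaining MFAP4 counts fall was not tested. FBN2, EFEMP2 and MFAP5 share 0.424%, 0.204% and 1.68% of their exonic bases with genes on the opposite strand.

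**Figure D2:**
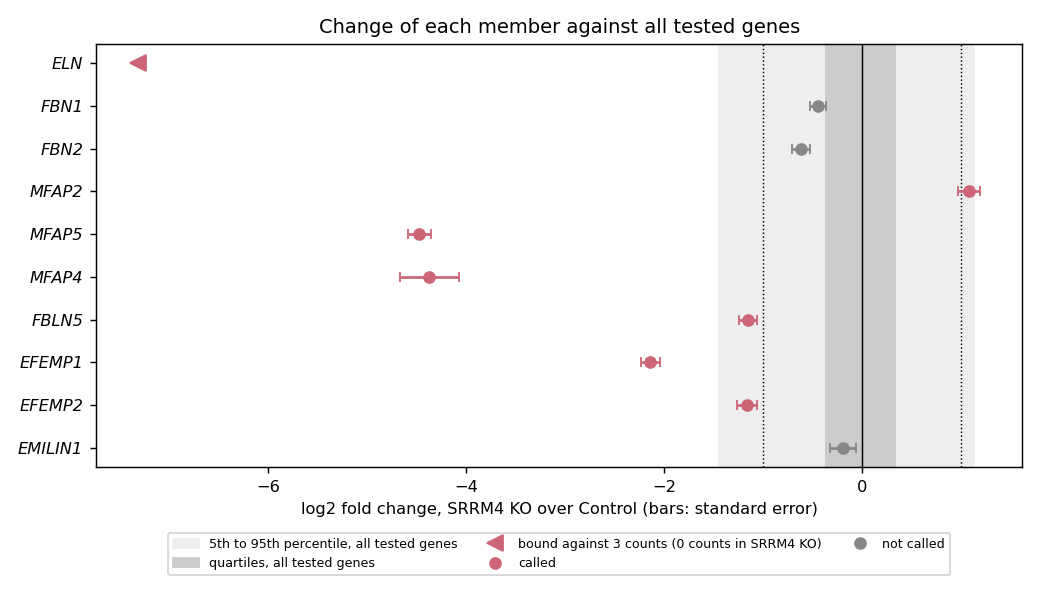
Log2 fold change (SRRM4 KO over Control) of each gene with its standard error; red points were called and grey points were not, and the arrowhead for ELN is the bound against 3 counts per library. The bands mark the quartiles (-0.37 to 0.33) and the 5th to 95th percentiles (-1.45 to 1.13) of all tested genes: ELN, MFAP5, MFAP4 and EFEMP1 lie below the wider band.

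The 3 fibulin genes fell, by unequal amounts. EFEMP1 (ENSG00000115380, chromosome 2, 55865967 to 55924139) encodes fibulin 3, a glycoprotein of basement membranes and elastic tissues. It had 421, 347 and 373 CPM in control and 81.4, 82.0 and 95.6 CPM in SRRM4 KO libraries. The groups were far apart relative to their spread, and the log2 fold change was -2.14 ± 0.097 (SE, adjusted p = 2.54e-10), a 4.41-fold fall.

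EFEMP2 (ENSG00000172638, chromosome 11, 65866441 to 65873592) encodes fibulin 4, which brings lysyl oxidase to tropoelastin. Its CPM were 176, 230 and 233 in control and 95.7, 95.4 and 94.4 in SRRM4 KO libraries. Control replicate 1 was the lowest control library and was still above all SRRM4 KO libraries. The log2 fold change was -1.16 ± 0.10 (SE, adjusted p = 3.42e-07). FBLN5 (ENSG00000140092, chromosome 14, 91869412 to 91947987) encodes fibulin 5, which tethers tropoelastin to microfibrils and to cells. It had 75.4, 69.3 and 69.3 CPM in control and 31.5, 31.9 and 33.0 CPM in SRRM4 KO libraries, with little spread in either group. The log2 fold change was -1.15 ± 0.093 (SE, adjusted p = 1.29e-07).

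The ratio of FBLN5 to EFEMP2 per base of gene length had log2 means of -1.45 ± 0.30 in control and -1.45 ± 0.046 in SRRM4 KO libraries (SD, n = 3). The groups overlapped, and the exact permutation p was 1. The ratio of EFEMP1 to EFEMP2 had log2 values of 1.70, 1.04 and 1.12 in control and 0.21, 0.23 and 0.46 in SRRM4 KO libraries, a difference of -0.99 without overlap (exact permutation p = 0.10, adjusted 0.15). Control replicate 1 was the highest in both ratios.

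EMILIN1 (ENSG00000138080, chromosome 2, 27078567 to 27086408) encodes the glycoprotein found at the interface of elastin and microfibrils. It had 135, 199 and 195 CPM in control and 163, 169 and 129 CPM in SRRM4 KO libraries. The groups overlapped, and control replicate 1 lay near the lowest SRRM4 KO library. The log2 fold change was -0.19 ± 0.13 (SE, adjusted p = 0.272), and over the fits that left out 1 library it ran from -0.35 to -0.09. Without control replicate 1 it was -0.35 with an adjusted p of 0.00143, which passes the adjusted p but not the fold change threshold. The log2 ratio of EMILIN1 to FBN1 was -1.67 ± 0.47 in control and -1.41 ± 0.21 in SRRM4 KO libraries (SD, n = 3, exact permutation p = 0.70, adjusted 0.84).

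**Figure D3:**
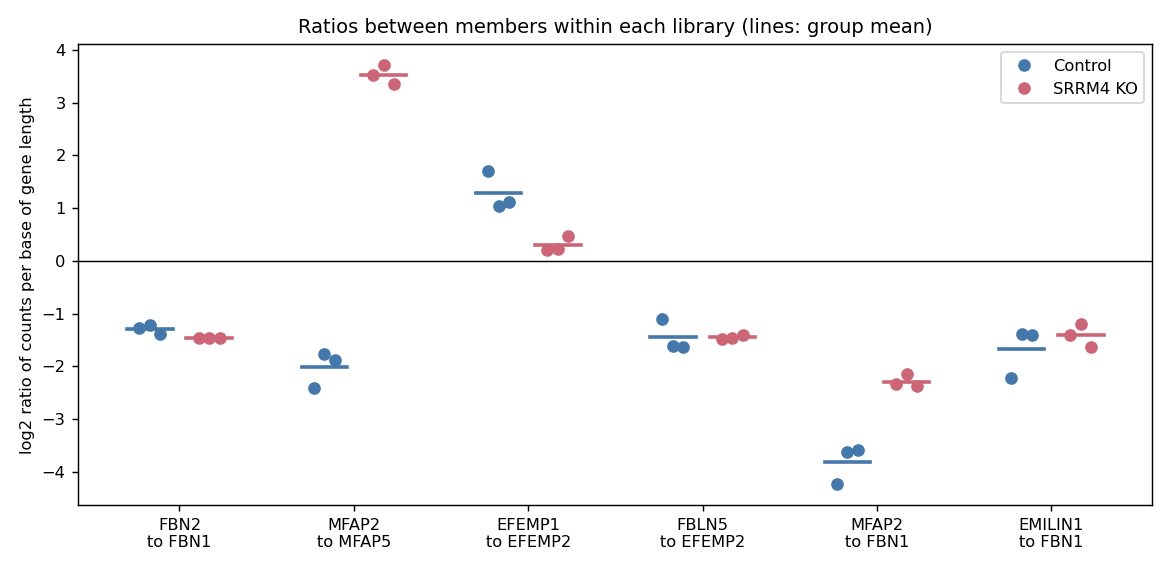
Log2 ratios between pairs of members within each library, from counts with 0.5 added per base of gene length; points are libraries and lines are group means. MFAP2 to MFAP5 crosses 0 between the groups, from -2.02 to 3.53, and FBLN5 to EFEMP2 and EMILIN1 to FBN1 overlap.

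On a per-length scale (RPKM, the CPM divided by the gene length in kilobases), the 10 genes summed to 451 ± 20.1 in control and 248 ± 9.96 in SRRM4 KO libraries (SD, n = 3). In control the order of mean RPKM was FBN1 (140), EFEMP1 (96.0), FBN2 (57.4), EMILIN1 (44.5), MFAP5 (40.3), EFEMP2 (39.5), FBLN5 (14.3), MFAP2 (9.96), MFAP4 (5.94) and ELN (3.19). EMILIN1, MFAP5 and EFEMP2 overlapped with their neighbours in this order, and the other neighbours did not. In SRRM4 KO cells the order was FBN1 (103), EMILIN1 (38.9), FBN2 (37.4), EFEMP1 (21.8), MFAP2 (21.0), EFEMP2 (17.6), FBLN5 (6.46), MFAP5 (1.82), MFAP4 (0.286) and ELN (0). Here EMILIN1 overlapped with FBN2 and EFEMP1 with MFAP2.

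The composition shifted accordingly. FBN1 made up 31.0% ± 2.13 of the summed RPKM in control and 41.5% ± 1.21 in SRRM4 KO libraries (SD, n = 3), although its own level was lower. MFAP2 went from 2.22% ± 0.391 to 8.47% ± 0.491. EMILIN1 went from 9.93% ± 2.38 to 15.6% ± 1.90, although its own level did not rise (log2 fold change -0.19, adjusted p = 0.272). EFEMP1 went from 21.2% ± 1.18 to 8.80% ± 1.12 and MFAP5 from 8.92% ± 0.621 to 0.734% ± 0.0539. ELN held 0.710% ± 0.0902 of the sum in control. Groups did not overlap in any of these 6 shares. The file gives 1 length per gene, so a change in the isoforms used would alter these values.

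**Figure D4:**
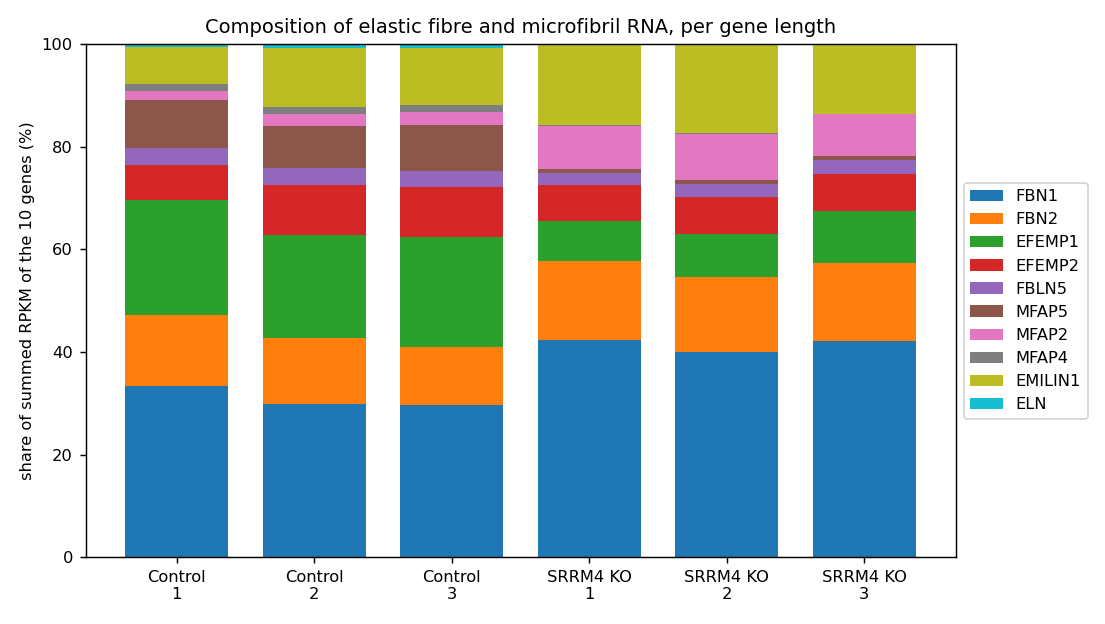
Share of the summed RPKM of the 10 genes in each library, in percent, as stacked bars from 0 to 100. FBN1 holds 29.6% to 33.4% in control and 40.1% to 42.3% in SRRM4 KO libraries; the bands of EFEMP1 and MFAP5 are narrower and that of MFAP2 is wider in the SRRM4 KO libraries.

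Genes that work with elastic fibres were taken from a list of 72 by role. Of 58 tested, 1 was called higher and 10 lower, or 19% beside 12.6% of all tested genes, and the median log2 fold change was -0.32. All 4 genes of the latent TGF-beta binding protein family had log2 fold changes below 0, as had 7744 of the 15341 tested genes. LTBP1 was called. LTBP2 was at -0.09 (adjusted p = 0.490) with overlapping groups. LTBP1 fell from 292 ± 26.6 to 105 ± 1.93 CPM (SD, n = 3, log2 fold change -1.47, adjusted p = 4.03e-09). Of the 5 lysyl oxidases, which cross-link elastin and collagen, LOX and LOXL4 were called lower. LOX had 1350 ± 120 CPM in control and 509 ± 27.9 CPM in SRRM4 KO cells (SD, n = 3, log2 fold change -1.41, adjusted p = 2.25e-09), and LOXL4, a low-count gene, had a log2 fold change of -2.19. LOXL1, the enzyme that works with fibulin 5, was at 0.25 (adjusted p = 0.0451), under the fold change threshold. Its groups nearly touched, with 404 CPM in the highest control library and 405 CPM in the lowest SRRM4 KO library. LOXL2 had a log2 fold change of 0.00 ± 0.082 (SE). LOXL3 was at -0.64 (adjusted p = 0.000112), also under the threshold and without overlap between the groups.

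Of the other fibulins, hemicentins, EMILINs, multimerins and fibrillin 3, 5 of 10 were tested and FBLN2 was called. FBLN2 (fibulin 2) had 276, 270 and 334 counts in control and 3, 1 and 8 in SRRM4 KO libraries, and the groups were far apart. Its log2 fold change was -6.21 ± 0.34 (SE, adjusted p = 2.24e-09), and -7.21 without SRRM4 KO replicate 3. The other tested genes were HMCN1 (log2 fold change -0.66, adjusted p = 0.00177), EMILIN2 (-0.60, adjusted p = 1.89e-05), FBLN1 (-0.31, adjusted p = 0.00447) and FBLN7 (-0.10, adjusted p = 0.429), and the median of the 5 was -0.60. Of the 7 tested ADAMTS and ADAMTS-like genes of microfibrils, ADAMTS10 (-2.05) and ADAMTSL3 (-1.81) were called lower. THSD4, also known as ADAMTSL6, was at 0.78 (adjusted p = 4.61e-06), under the fold change threshold. By the adjusted p alone 3 of the 7 were lower, including ADAMTSL4 (-0.51, adjusted p = 0.0024). The 2 higher by it were THSD4 and ADAMTS6 (0.76, adjusted p = 0.00868). Of all tested genes 12.6% were called, and 41.6% passed the adjusted p alone.

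Among matrix partners, the small proteoglycans that bind elastic fibre proteins were called lower. BGN (biglycan) fell from 607 ± 16.8 to 14.8 ± 3.25 CPM (SD, n = 3), and DCN (decorin) from 387 ± 38.8 to 37.6 ± 1.22 CPM. VCAN (versican) was at a log2 fold change of 0.09 (adjusted p = 0.544). FN1 (fibronectin), on which fibrillin assembly depends, was at -0.97 (adjusted p = 1.51e-08), just under the fold change threshold. By the adjusted p alone 5 of the 6 genes of this role were lower, HSPG2 (-0.84) and FKBP10 (-0.50) among them, and 0 higher. Of all tested genes 20.9% were lower by it. Of the 7 tested integrin subunits, ITGB3 was called higher and ITGA8 lower. ITGB3, a receptor subunit for fibrillin, rose from 13.3 ± 0.337 CPM in control (SD, n = 3) to 57.3, 57.4 and 54.8 CPM in SRRM4 KO libraries. ITGAV, the alpha subunit that pairs with the product of ITGB3, went the other way, from 645 ± 82.4 to 369 ± 13.3 CPM (SD, n = 3, log2 fold change -0.81, adjusted p = 2.88e-06), under the fold change threshold. By the adjusted p alone 4 of the 7 subunits were lower and 2 higher, beside 41.6% of all tested genes in either direction. ITGA8 had 35, 23 and 36 control counts and then 0, 0 and 0 in SRRM4 KO libraries. Its fall is at least 10.9-fold.

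Of 6 tested elastin-degrading enzymes, CTSK (cathepsin K) was called lower, from 321 ± 16.0 to 121 ± 3.91 CPM (SD, n = 3), and MMP2 had a log2 fold change of 0.55 and MMP14 one of -0.67. By the adjusted p alone 4 of these 6 were lower (CTSK, MMP14, CTSL and CTSS) and 1, MMP2, was higher. Of 6 tested TGF-beta and BMP ligands, 3 tested genes of the elastin receptor complex and 9 cutis laxa genes of trafficking and metabolism, 0 were called by edgeR or DESeq2. By the adjusted p alone 2 of the ligands were lower, namely BMP4 (log2 fold change -0.74, adjusted p = 1.43e-05) and TGFB3 (-0.49, adjusted p = 0.0393). In the receptor complex NEU1, the sialidase, was higher (0.56, adjusted p = 3.36e-05). Of the cutis laxa genes, SLC2A10 (-0.64) and RIN2 (-0.31) were lower and ALDH18A1 (0.45) was higher by the adjusted p alone. At an unadjusted p under 0.05 the counts were 2 ligands lower, 1 receptor complex gene higher, and 4 cutis laxa genes lower and 1 higher. Beside these counts stand 41.6% of all tested genes for the adjusted p alone and 49.1% for the unadjusted p. TGFB1 was at -0.01, and the copper transporter ATP7A, which supplies lysyl oxidases, was at 0.01, each as a log2 fold change.

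**Figure D5:**
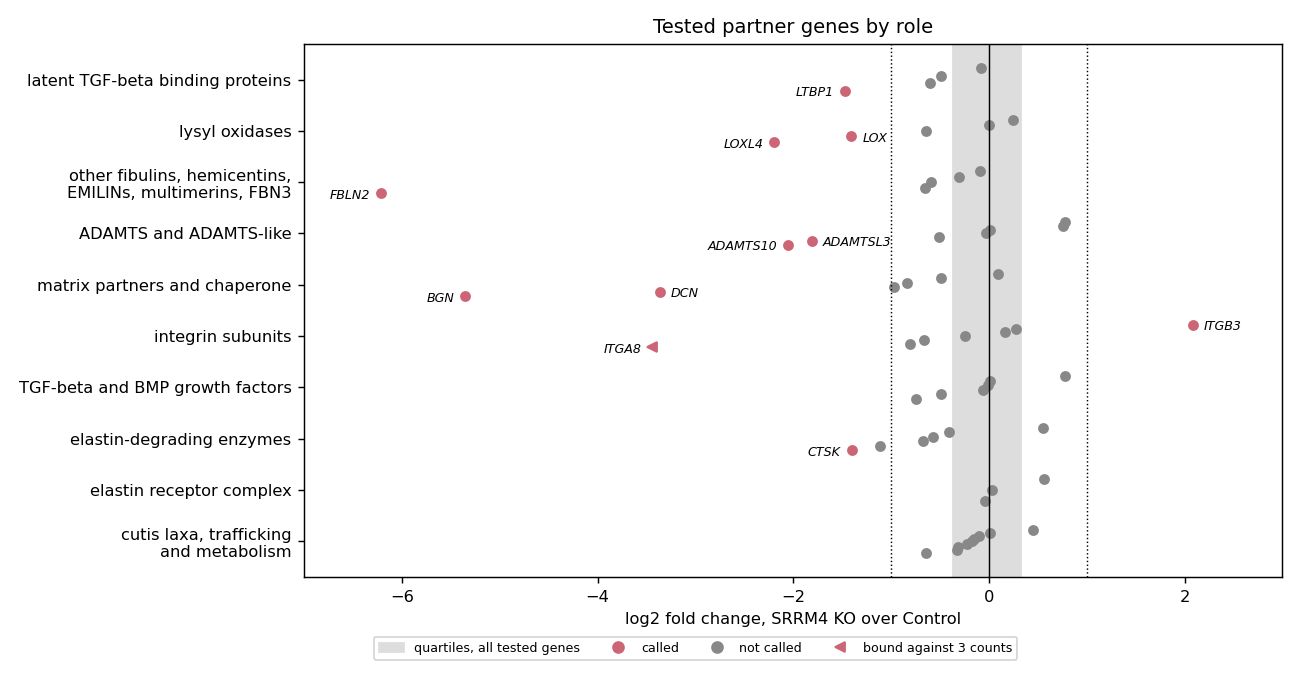
Log2 fold change (SRRM4 KO over Control) of the 58 tested partner genes by role; red marks were called and are named, the arrowhead is a bound against 3 counts, and the grey band holds the quartiles of all tested genes. FBLN2, BGN, ITGA8 and DCN lie furthest to the left, and ITGB3 is the called gene on the right.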

How the data were processed

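RNA of 3 control and 3 SRRM4 KO libraries of UE7T-9 cells was measured by non-stranded mRNA-seq. The authors deposited raw read counts per gene, without normalization. The submitters' processing notes name HISAT2 2.0.5, featureCounts 1.5.0-p3 and DESeq2, and the genome build is not given in the sources used here. All 58735 gene IDs were found in GENCODE release 29 (GRCh38), 58724 with identical coordinates. Reads shared by overlapping genes carry the uncertainty of counting without strand.

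Counts were fitted with edgeR 4.0.16 in R 4.3.3 (TMM, filterByExpr, prior count 0.125, quasi-likelihood test, Benjamini-Hochberg over all tested genes). The procedure was tested on simulated data. RPKM used the gene length given in the table. Ratios used 0.5 added counts and an exact two-sided permutation test. The alternatives tried were size factors from DESeq2, normalization by upper quartile, no filter, 10 counts in every library, the replicate block, DESeq2 1.42.0, glmTreat, no fold change threshold, each library left out and, for ratios, pseudocounts of 1 and 0.1.

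The members, lists and tests were chosen with earlier results of these data known. Every member is named, as are at most 2 called genes per direction and partner role, the 3 genes most like ELN and called genes within 100 kb of a member. Other partner genes were named after their values were seen. A marker gene of the haematopoietic list is not reported here.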

Additional observations from a re-analysis of the deposited data

How the results depend on the processing

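Of 128 values of the members under alternatives, 124 kept their direction and their side of the threshold and 0 reversed. With glmTreat, which tests against a 2-fold change, FBLN5, EFEMP2 and MFAP2 were not called (adjusted p 0.224, 0.240 and 0.890), which left 4 members lower and 0 higher, and of all genes 577 were lower and 360 higher. Without the fold change threshold 8 members were lower and 1 higher, 30 partner genes were lower and 8 higher, and of all genes 3213 were lower and 3171 higher. With at least 10 counts in every library ELN and MFAP4 were not tested, and 4 members were lower. Leaving out each library gave 0 to 1 members higher and 6 lower, and 11 to 12 partner genes lower. The difference in the log2 ratio of FBLN5 to EFEMP2 was 0.00 and changed sign, from -0.091 (without control replicate 3) to 0.17 over the libraries left out, and that of EMILIN1 to FBN1 was 0.26 and ran from -0.017 (without control replicate 1) to 0.40. Windows of 250 kb and 1000 kb around the members changed no direction (12.5% and 12.9% of genes called, against 12.1% within 500 kb). The cause of these changes was not tested beyond what each setting removes.

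Deviations of same-numbered libraries from their group means had r of -0.09, 0.11 and -0.10 over all tested genes. For libraries of unlike number r ran from -0.17 to 0.23. With 3 libraries in a group, these values cannot show whether the numbers pair the libraries. With the replicate block 6 members were lower and 1 higher, and 10 partner genes lower and 1 higher, as without it. Low counts limit MFAP4, FBLN2, LOXL4 and ITGA8 in SRRM4 KO cells.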

Other observations

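Besides ATP13A2, 4 called genes lay within 100 kb of a member, each with at most 47 counts in any library. SNX32, 9545 bases from EFEMP2, had 19, 10 and 17 counts in control and 4, 0 and 0 in SRRM4 KO libraries. KHK (ketohexokinase), 339 bases from EMILIN1, had 19, 39 and 30 counts in control and 11, 4 and 4 in SRRM4 KO libraries, and CGREF1, 12481 bases away, had 46, 43 and 47 and then 6, 7 and 0. PADI2, near MFAP2, had 18, 36 and 19 counts in control and 0, 5 and 6 in SRRM4 KO libraries. All 4 were called lower by edgeR. Of the 141 tested genes within 500 kb of a member, 12.1% were called, beside 12.6% of all tested genes, and their median log2 fold change was 0.06.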
